A study of Homo sapiens with 8 samples.

Results

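Genes of the mitochondrial iron-sulfur cluster machinery were followed in KYSE150 cells, an established esophageal squamous cell carcinoma line, after knockdown of the BOLA3-L isoform. The 9 genes are NFS1, ISCU, GLRX5, BOLA1, BOLA3, ISCA1, ISCA2, IBA57 and NFU1, out of 15852 genes in the deposited count table. They were chosen by name for their place in the pathway, with earlier results of these data known. The comparison sets 4 libraries of the genotype labelled ShBOLA3-L against 4 libraries labelled Control. Every library came from the same line, and the labels give no treatment. The labels do not state if the controls carried a non-targeting hairpin, nor if replicates are cultures grown apart, so p-values measure only the spread between these libraries, which may be technical. Total counts were 31178036 to 35147860 in knockdown libraries and 31215897 to 33195901 in control libraries. All 9 genes had enough counts to be tested, among 11841 genes tested in all.

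Mitochondria build iron-sulfur clusters in steps. The cysteine desulfurase NFS1 supplies sulfur and a small cluster is assembled on the scaffold ISCU. The monothiol glutaredoxin GLRX5 then carries the cluster onward. Late-acting proteins, ISCA1, ISCA2, IBA57, NFU1 and the BolA proteins BOLA1 and BOLA3, serve the making of larger clusters and their delivery to recipient enzymes, among them lipoic acid synthase. BOLA1 and BOLA3 bind GLRX5 and are grouped with it here as the carrier step. Inherited loss of human BOLA3, NFU1 or IBA57 impairs enzymes that need lipoic acid.

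The isoform question sits in a short stretch of BOLA3 (identifier 388962, chromosome 2, 74135400 to 74147912, minus strand, GRCh38). GENCODE v29 lists 5 transcripts of the gene, of which 2 are protein-coding. The longer coding transcript has 4 exons and 107 codons, and its exon 3, 89 bases at 74142272 to 74142360, lies wholly in coding sequence. The shorter one skips that exon, has 3 exons and 101 codons, and reads its last exon in another frame, since 89 is not a multiple of 3. The sequences are shown because the study's title names the inclusion of this exon; capitals mark exon 3, and the lower-case bases on each side are the last 30 of exon 2 and the first 30 of the next exon, all coding in both transcripts.
BOLA3 with exon 3: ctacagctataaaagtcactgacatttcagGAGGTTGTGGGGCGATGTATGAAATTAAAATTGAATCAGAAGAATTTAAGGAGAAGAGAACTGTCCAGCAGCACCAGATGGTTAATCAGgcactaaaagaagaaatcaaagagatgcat
BOLA3 without exon 3: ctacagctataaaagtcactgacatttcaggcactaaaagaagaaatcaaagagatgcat
Exon 3 makes up 13.9% of the bases of the longer transcript. The deposited table has 1 count per gene, so reads over this exon and reads over the skipped junction cannot be separated, and which transcript makes up the BOLA3 counts left in knockdown cells was not measured.

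All 7 epithelial markers chosen to check the line were expressed, and their summed level was 2738 to 3079 CPM in knockdown libraries and 4336 to 4362 CPM in control libraries. Of them 6 fell, KRT5, KRT14, KRT6A, TP63, SFN and DSG3, and EPCAM rose. For comparison, 15.0% of all tested genes rose and 15.6% fell (edgeR adjusted p under 0.05). Of 9 leukocyte, endothelial and fibroblast markers 3 had enough counts to test: CDH5 rose, COL1A1 fell and CD68 did not pass. The other 6 were at or near 0 in every library: CD3E, PECAM1, COL1A2 and PTPRC at 0.151 CPM or less, VWF at 0.603 CPM or less and PDGFRB at 0.641 CPM or less. COL1A1 reached 13.6 CPM, CDH5 1.92 CPM and CD68 83.8 CPM. The summed level of the list was 81.3 to 85.9 CPM in knockdown libraries and 87.8 to 99.0 CPM in control libraries, most of it CD68. What part these shifts have in the results for the 9 genes was not tested. Knockdown replicate 1 stood apart from knockdown replicates 2 to 4. Without it 42.7% of 11897 tested genes passed, and 21.2% rose and 21.5% fell; the other counts without it are to be read against these shares.

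In the carrier step BOLA3 itself fell, its partner GLRX5 rose slightly, and the paralog BOLA1 did not pass the test. Of all genes tested, 30.7% passed edgeR's quasi-likelihood test at a Benjamini-Hochberg adjusted p under 0.05, with 15.0% that rose and 15.6% that fell. Among the 9 genes 1 rose and 2 fell, a share near that of all genes. That share counts BOLA3, the gene the knockdown targeted. Besides BOLA3, GLRX5 rose and ISCA2 fell. BOLA3 stood at 6.06, 6.64, 6.33 and 7.29 CPM (counts scaled to the size of the library) in knockdown replicates 1 to 4, against 21.6, 19.1, 20.5 and 21.8 CPM in control replicates 1 to 4. The groups were far apart: the highest knockdown library stayed well under the lowest control. The log2 change was -1.66 with a 95% interval from -1.83 to -1.48 (edgeR adjusted p 6.9e-11). The level left was 31.7% of control, and it rests on 191 to 248 counts per knockdown library and 604 to 718 per control library. BOLA3 is the targeted gene, so this fall is the check of the knockdown rather than a response to it. In bulk RNA, fewer cells expressing a gene and less RNA per cell cannot be told apart.

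GLRX5 (identifier 51218, chromosome 14, 95535050 to 95544714) was counted at 104, 106, 103 and 104 CPM in knockdown replicates 1 to 4, against 98.1, 95.6, 97.4 and 95.6 CPM in control replicates 1 to 4. Every knockdown library lay above every control, as the groups of 30.2% of all tested genes also did not overlap. The step was small, to 108% of the control mean: 104 ± 1.42 CPM in knockdown cells and 96.7 ± 1.27 CPM in control cells (SD, n = 4 each; log2 change 0.11, SE 0.0378, edgeR adjusted p 0.0333). The call is fragile. It was lost without any 1 library other than knockdown replicate 1, and without a filter on low counts (adjusted p from 0.0049 to 0.0915 over the libraries left out).

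BOLA1 (identifier 51027, chromosome 1, 149899568 to 149900795), which also binds GLRX5, had 6.53, 8.71, 8.92 and 7.76 CPM in knockdown replicates 1 to 4, against 6.85, 6.06, 7.53 and 7.72 CPM in control replicates 1 to 4. Knockdown replicate 1 sat inside the control range, and the other 3 knockdown libraries above it. With all libraries the log2 change was 0.18 (95% interval -0.06 to 0.42, edgeR adjusted p 0.253). Without knockdown replicate 1 it was 0.27 and passed (edgeR adjusted p 0.0430), and with offsets corrected for GC content as well it was 0.22 and did not (edgeR adjusted p 0.101).

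**Figure D1:**
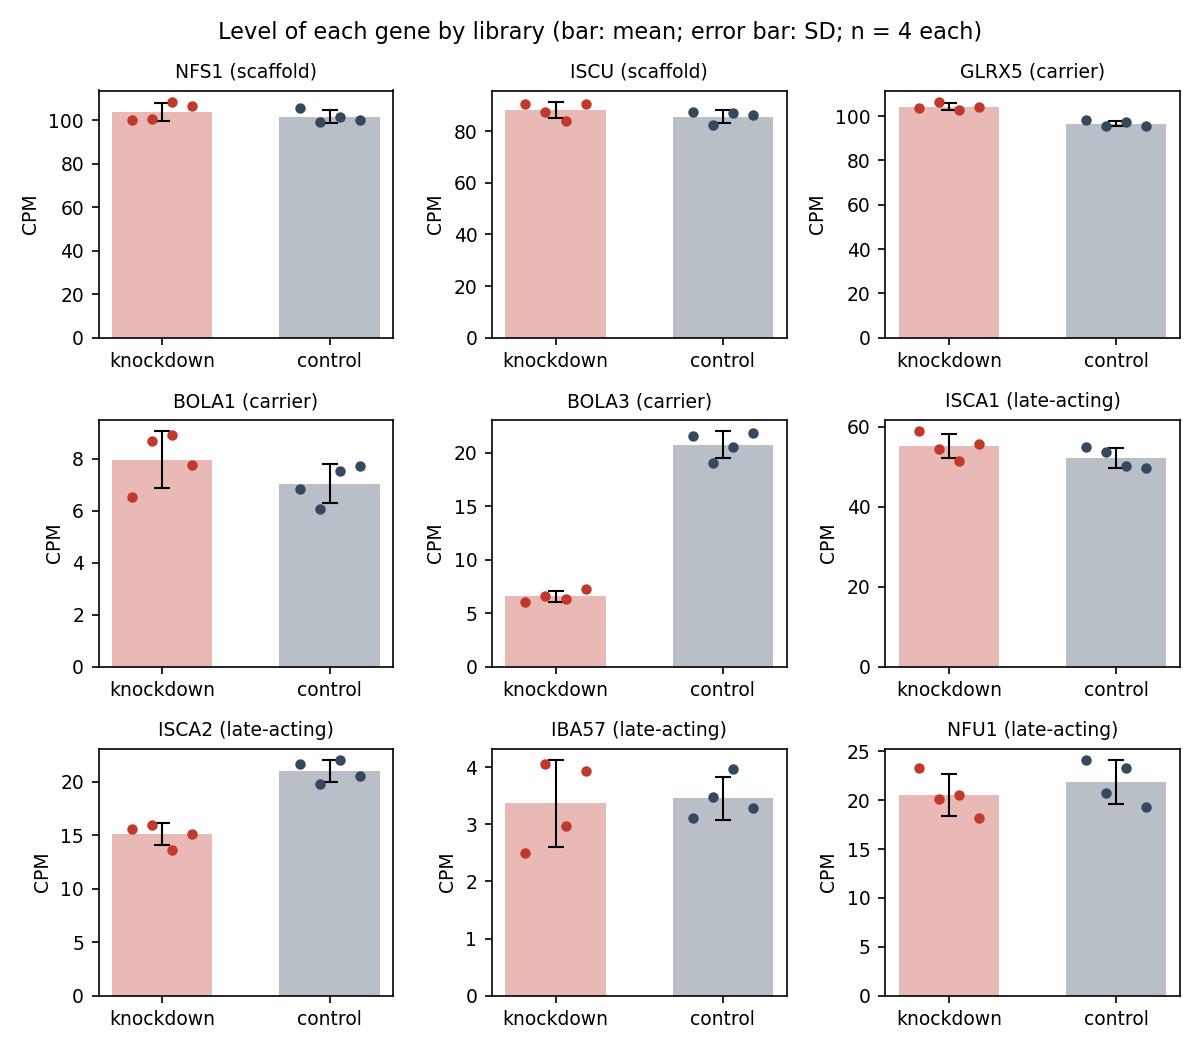
CPM of each of the 9 genes in the 4 knockdown libraries (left) and the 4 control libraries (right); bars are means, error bars SD, points libraries. The groups are apart in GLRX5, BOLA3 and ISCA2 and overlap in the other 6 genes.

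In the late-acting step ISCA2 fell, and its paralog ISCA1 did not pass. Both encode A-type carriers, which act together with IBA57 in making the larger clusters. Their relation shows in the coding sequence near the C-terminus, where a Cys-X-Cys-Gly motif binds the cluster. A search of each reading frame for codons of that motif found 1 match per gene, starting at codon 121 of 129 in ISCA1 and codon 144 of 154 in ISCA2. The stretches below come from GENCODE v29 transcripts (ISCA1, chr9:86266046-86266090, minus strand; ISCA2, chr14:74494947-74494991, plus strand; GRCh38), with the 4 motif codons in capitals.
ISCA1: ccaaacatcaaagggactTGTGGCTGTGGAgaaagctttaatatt
ISCA2: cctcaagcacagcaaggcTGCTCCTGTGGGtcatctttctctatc

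ISCA2 (identifier 122961, chromosome 14, 74493765 to 74497106) was counted at 15.6, 16.0, 13.7 and 15.1 CPM in knockdown replicates 1 to 4, against 21.6, 19.8, 22.0 and 20.5 CPM in control replicates 1 to 4. All knockdown libraries were below all controls, and knockdown replicate 1 stood among the other knockdown libraries. The means were 15.1 ± 1.03 CPM in knockdown cells and 21.0 ± 1.03 CPM in control cells (SD, n = 4 each), or 71.9% of control. The log2 change was -0.48 (95% interval -0.62 to -0.33, edgeR adjusted p 4.9e-05). It passed in every alternative run, at -0.51 to -0.43 with any 1 library left out and -0.40 on log2 FPKM with a pseudocount of 1.

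ISCA1 (identifier 81689, chromosome 9, 86264546 to 86282538) was at 55.2 ± 3.06 CPM in knockdown cells and 52.2 ± 2.58 CPM in control cells (SD, n = 4 each). Its log2 change was 0.08 with a 95% interval from -0.03 to 0.19 (edgeR adjusted p 0.268), an interval that does not reach the fall of ISCA2. Sequence shared with pseudogenes covers 15.8% of its longest coding transcript, so its count is uncertain to that extent. IBA57 (identifier 200205, chromosome 1, 228165804 to 228182257), which works with the ISCA proteins, was the lowest of the 9 genes, with 79 to 143 counts per knockdown library and 96 to 131 per control library. Its interval was wide, -0.38 to 0.31 around a log2 change of -0.04 (edgeR adjusted p 0.890, 4 libraries a group), and a change of the size seen in GLRX5 or BOLA1 was not detectable. NFU1 (identifier 27247, chromosome 2, 69395750 to 69439567), which hands clusters to lipoic acid synthase and shares its disease picture with BOLA3, had 20.5 ± 2.13 CPM in knockdown cells and 21.9 ± 2.22 CPM in control cells (SD, n = 4 each). The difference was less than the spread between libraries (log2 change -0.09, 95% interval -0.27 to 0.08, edgeR adjusted p 0.421).

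At the scaffold step neither gene passed. NFS1 (identifier 9054, chromosome 20, 35668052 to 35699352) stood at 104 ± 4.05 CPM in knockdown cells and 101.6 ± 2.97 CPM in control cells, and ISCU (identifier 23479, chromosome 12, 108561463 to 108569384) at 88.1 ± 3.12 CPM and 85.7 ± 2.37 CPM in the same order (SD, n = 4 each). These genes had 2604 to 3728 counts per library, and their intervals were narrow: log2 changes of 0.03 (-0.06 to 0.12, edgeR adjusted p 0.599) for NFS1 and 0.04 (-0.05 to 0.13, edgeR adjusted p 0.511) for ISCU. The count of scaffold genes called was 0 in edgeR and 0 in DESeq2, and 0 had an unadjusted p under 0.05. Over all tested genes 30.7% passed in edgeR, and at least 4831 of 11841 had an unadjusted edgeR p under 0.05.

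**Figure D2:**
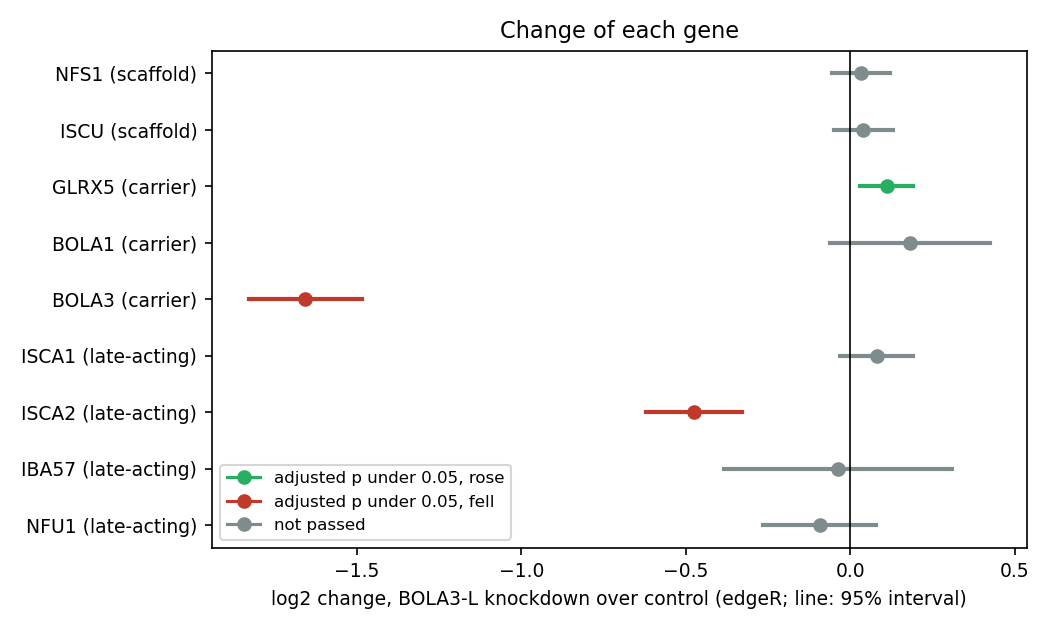
Log2 change of each gene, BOLA3-L knockdown over control, with its 95% interval from edgeR. BOLA3 at -1.66 and ISCA2 at -0.48 lie left of 0, GLRX5 at 0.11 lies right of it with an interval of 0.03 to 0.19, and the other 6 intervals include 0.

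Levels can be set beside each other only per length, for which the deposited FPKM values serve. In knockdown cells the order ran from GLRX5 (95.2 FPKM) over NFS1 (34.8), ISCA1 (28.2), ISCU (26.2), BOLA3 (11.9), NFU1 (9.41), BOLA1 (7.20) and ISCA2 (5.89) to IBA57 (0.430). In control cells it ran from GLRX5 (87.0 FPKM) over BOLA3 (37.1), NFS1 (33.5), ISCA1 (26.3), ISCU (25.1), NFU1 (9.89), ISCA2 (8.07) and BOLA1 (6.26) to IBA57 (0.436). BOLA3 was thus 5th in knockdown cells and 2nd in control cells, and ISCA2 and BOLA1 changed places. The ranges over libraries of ISCA1 and ISCU overlapped in both groups, those of BOLA1 and ISCA2 in knockdown cells, and those of BOLA3 and NFS1 in control cells. The other neighbours in the order did not overlap. The order among the highest genes depends on the length used. The deposited FPKM imply 3385 bases for ISCU, while its longest coding transcript in GENCODE v29 has 1330. They imply 1103 bases for GLRX5, against 1863. Scaled to the longest coding transcripts, a comparison chosen after seeing the data, ISCU came first in both groups (66.7 in knockdown cells, 63.9 in control cells), GLRX5 next (56.4 and 51.5), and BOLA3 was 6th in knockdown cells and 4th in control cells.

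**Figure D3:**
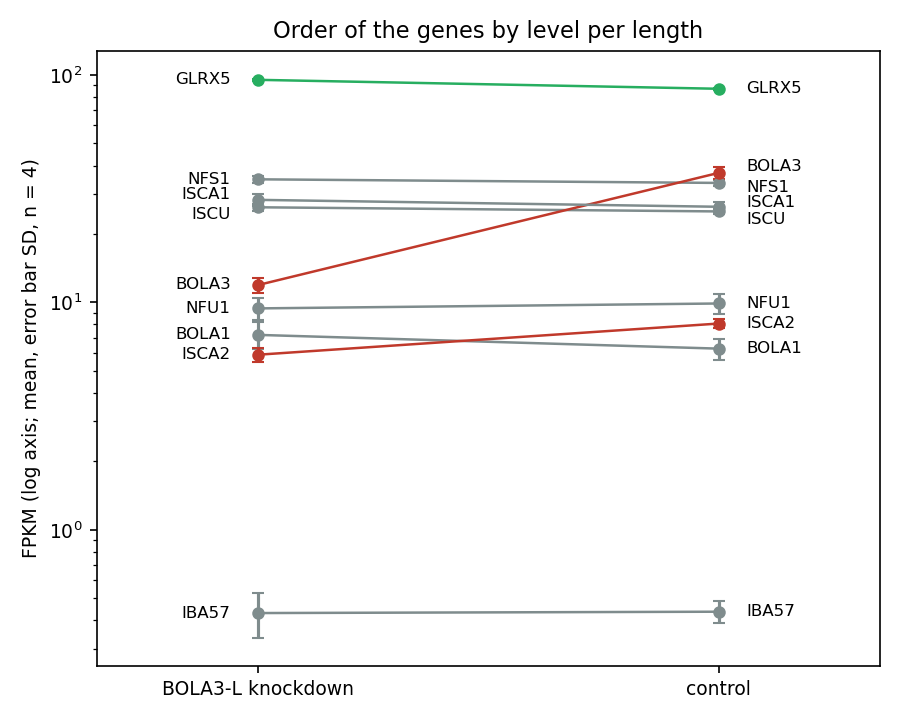
Mean FPKM of the 9 genes in knockdown cells (left) and control cells (right) on a log axis, with SD over 4 libraries; red marks genes that fell, green the gene that rose. The BOLA3 line crosses those of NFS1, ISCA1 and ISCU, and the ISCA2 line crosses that of BOLA1.

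Ratios within a library show how the balance between partner genes differed, free of any scaling between libraries. Of the 6 ratios of FPKM computed, 3 have the knocked down gene as a term, so they restate its fall and are given as a description. BOLA3/GLRX5 was 0.125 ± 0.00980 in knockdown cells and 0.427 ± 0.0247 in control cells, BOLA3/BOLA1 was 1.68 ± 0.233 and 5.96 ± 0.443, and NFU1/BOLA3 was 0.797 ± 0.142 and 0.267 ± 0.0294, knockdown before control in each (SD, n = 4 each). The NFU1/BOLA3 ratio ranged over 0.629 to 0.973 in knockdown libraries and over 0.224 to 0.288 in control libraries. The other 3 ratios do not involve BOLA3. ISCA2/ISCA1 was 0.202, 0.223, 0.202 and 0.207 in knockdown replicates 1 to 4, against 0.2997, 0.281, 0.333 and 0.315 in control replicates 1 to 4. The groups do not overlap, with a log2 difference of -0.56. An exact permutation test (two-sided) gave p = 0.0286, the lower limit with 70 assignments. The adjusted p was 0.0429 over all 6 ratios but 0.0857 over the 3 without BOLA3, an adjustment added after seeing the data. The pass over 6 rests on the BOLA3 ratios. Over the 3, a ratio that alone reaches the lower limit of p cannot get under 0.0857, so that value carries no call. These tests therefore do not settle if the paralogs differed in response. ISCA2/IBA57 (14.2 ± 3.38 in knockdown cells, 18.6 ± 1.995 in control cells; exact permutation p = 0.0857, adjusted p 0.103 over 6) and NFS1/ISCU (1.33 ± 0.0866 and 1.33 ± 0.0266; exact permutation p = 0.914) did not pass. With 1 library left out, 35 assignments remain and the smallest possible p is 0.0571, so those values carry no call.

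**Figure D4:**
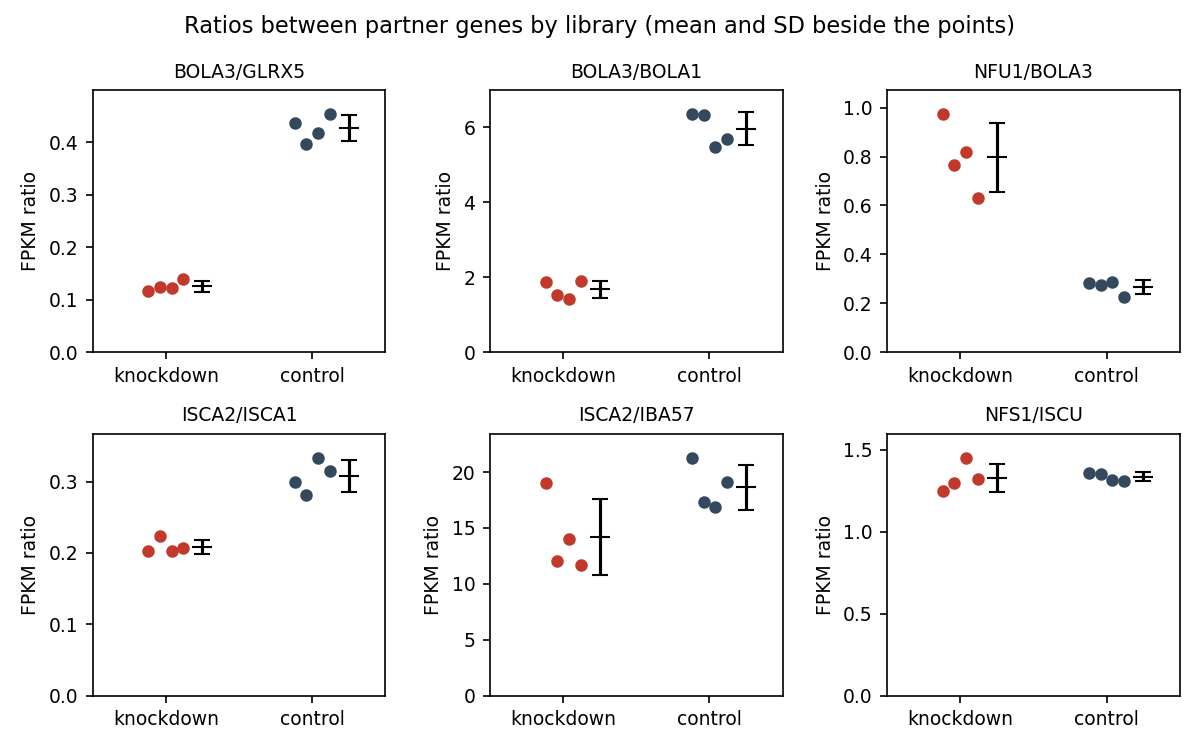
Ratio of FPKM between 2 genes in each library, knockdown left of control, with mean and SD beside the points. The ratios with BOLA3 and ISCA2/ISCA1 separate the groups; ISCA2/IBA57 and NFS1/ISCU do not.

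The other genes of the pathway are counted beside the shares over all tested genes, 15.0% that rose and 15.6% that fell in edgeR. Over all genes DESeq2 gave 1830 that rose and 1911 that fell among 15848. At least 4831 of the 11841 genes tested in edgeR had an unadjusted p under 0.05, in either direction. Of 17 other genes of cluster assembly, which serve electron supply, chaperoning, iron import and export, 2 rose and 0 fell in edgeR (DESeq2 gave 2 and 0, and unadjusted p-values under 0.05 gave 4 and 0), with a median log2 change of 0.04 against 0.00 over all tested genes. NDUFAB1, the mitochondrial acyl carrier protein that is also a part of the NFS1 complex, rose by 0.24 on the log2 scale (62.1 ± 3.26 CPM in knockdown cells, 52.4 ± 3.17 CPM in control cells; SD, n = 4 each; edgeR adjusted p 0.0020). ABCB10, an inner membrane transporter linked to iron import, rose by 0.20 (edgeR adjusted p 0.0184), a call lost without knockdown replicate 2 or control replicate 1 (adjusted p up to 0.0774). Without knockdown replicate 1, FDX1 and FDXR of the electron supply also passed, 4 genes in all, where 21.2% of all tested genes rose. With offsets corrected for GC content as well, FDX1 passed and FDXR did not.

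Of 14 tested mitochondrial proteins that carry clusters, 2 rose and 0 fell in edgeR (DESeq2 gave 2 and 0, and unadjusted p-values under 0.05 gave 3 and 0). Over all tested genes 15.0% rose and 15.6% fell in edgeR. DESeq2 gave 1830 and 1911 among 15848 genes, and at least 4831 of 11841 genes had an unadjusted edgeR p under 0.05. NDUFS1, a subunit of complex I, had 121 ± 0.830 CPM in knockdown cells and 105 ± 1.57 CPM in control cells (SD, n = 4 each; log2 change 0.21, edgeR adjusted p 0.00025). Without knockdown replicate 1, NDUFS7, NDUFS8, NDUFV1 and CISD3 passed as well and CISD1 fell, 6 and 1 in all. Of all genes tested in that fit 21.2% rose and 21.5% fell. With offsets corrected for GC content as well, none of these 5 genes passed. Of 12 genes of lipoic acid synthesis and its carrier proteins, the destination that BOLA3 and NFU1 share, MCAT (0.22) and DBT (0.19) rose and PDHX (-0.14) fell. None of these 3 calls held with every library left out in turn: MCAT and PDHX each passed in 2 of 8 such fits and DBT in 6. Without knockdown replicate 1, DLAT also fell. It fell too with offsets corrected for GC content, over all libraries (edgeR adjusted p 0.0284) and without knockdown replicate 1 (edgeR adjusted p 0.0213). LIAS, the synthase itself, is counted both among these 12 genes and among the 14 cluster-carrying proteins. LIAS had a log2 change of 0.15 (SE 0.0673, edgeR adjusted p 0.0964). It passed with offsets corrected for GC content (edgeR adjusted p 0.0359), but not without knockdown replicate 1 as well (edgeR adjusted p 0.0540). Without GC correction it passed in no fit with 1 library left out.

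Outside mitochondria, GLRX3, the partner of the cytosolic BolA protein, did not pass (109 ± 5.17 CPM in knockdown cells, 112 ± 1.97 CPM in control cells; SD, n = 4 each). The cytosolic BolA protein has copies that reads can hardly tell apart: all 75-base windows of BOLA2 and BOLA2B are shared with each other and with a read-through transcript. BOLA2 itself had at most 1 count per library. BOLA2B had 4.72, 19.4, 2.85 and 2.59 CPM in knockdown replicates 1 to 4, against 2.003, 2.24, 2.03 and 2.07 CPM in control replicates 1 to 4, and did not pass with all libraries (edgeR adjusted p 0.137). All knockdown libraries were above all controls, but 1 library sets the size: without knockdown replicate 2 the log2 change was 0.69 in place of 1.83 and passed (edgeR adjusted p 0.0209).

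The nearest gene on each side of each of the 9 genes was read from the same fit. Only annotated genes that are in the deposited count table were considered, so other annotated genes can lie between. Of 18 such neighbours 15 were tested, of which 1 rose and 4 fell. GFPT1 beside NFU1 rose (log2 change 0.33). Among those that fell were TET3 beside BOLA3 (-0.30), AAK1 beside NFU1 (-0.26) and BDKRB2, 660125 bases from GLRX5 (-0.27). That share is near the background of 30.7%. Without knockdown replicate 1 the counts were 3 and 6, where 21.2% of all tested genes rose and 21.5% fell. The neighbours of the 2 genes that fell are given in full. ISCA2 starts 253 bases from NPC2, a cholesterol carrier of lysosomes on the other strand. The stretch before the ISCA2 start, RefSeq sequence at chr14:74493515-74493764 of GRCh38.p14, is shown because the genes start near its opposite ends; 68.8% of its bases are G or C.
ISCA2 upstream: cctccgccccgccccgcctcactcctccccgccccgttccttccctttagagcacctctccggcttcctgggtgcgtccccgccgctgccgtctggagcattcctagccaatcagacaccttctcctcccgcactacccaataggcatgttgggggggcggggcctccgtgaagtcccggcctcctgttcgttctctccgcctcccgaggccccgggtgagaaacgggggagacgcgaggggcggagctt
NPC2 had 123 ± 6.04 CPM in knockdown cells and 119 ± 1.83 CPM in control cells (SD, n = 4 each; log2 change 0.04, edgeR adjusted p 0.505). On the other side LTBP2, which encodes a matrix protein, had 9.08 ± 1.12 CPM in knockdown cells and 8.88 ± 0.968 CPM in control cells (SD, n = 4 each; log2 change 0.03, edgeR adjusted p 0.842). Neither neighbour of ISCA2 passed; the difference between ISCA2 and these genes was not tested.

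At BOLA3 the neighbours are TET3, a methylcytosine dioxygenase, and MOB1A, a cofactor of the Hippo kinases. TET3 lies on the opposite strand, and its annotated end, at 74135498, overlaps that of BOLA3, at 74135400, in RefSeq. It had 68.8, 62.1, 67.3 and 67.2 CPM in knockdown replicates 1 to 4, against 80.6, 85.5, 81.8 and 78.0 CPM in control replicates 1 to 4. TET3 fell (log2 change -0.30, SE 0.0464, edgeR adjusted p 9.4e-05), and passed without any 1 library. Whether counting used strand is not given in the sources used here, so how far reads in the overlap were shared between BOLA3 and TET3 was not tested. MOB1A had 204.6 ± 17.1 CPM in knockdown cells and 213 ± 2.93 CPM in control cells (SD, n = 4 each; log2 change -0.06, edgeR adjusted p 0.377). Without knockdown replicate 1, the highest of all 8 libraries for this gene, its log2 change was -0.12 and passed (edgeR adjusted p 0.00045), and with offsets corrected for GC content as well it was -0.064 and did not (edgeR adjusted p 0.0514).

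Among 10141 other genes averaging 5 CPM or more, those whose library profile lay closest to BOLA3 were SCD, PSMA4, BMP7, CA9 and DEPP1. Likeness was the root mean square difference of log2 CPM, each gene centred on its mean over the 8 libraries, and it was 0.14 for SCD and 0.19 to 0.21 for the other 4, against a median of 0.83. For ISCA2 the closest were DYRK3, BLOC1S6, CCDC88A, CASP1 and STK17A, at 0.06 to 0.07 against a median of 0.26. These profiles share the contrast between the 2 groups, so they list genes that differed by a like amount and say no more.

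Knockdown replicate 1 stood apart from the other knockdown libraries, also in some of the 9 genes. Set against the mean of knockdown replicates 2 to 4, its log2 CPM was lower, with differences of -0.52 for IBA57, -0.37 for BOLA1 and -0.15 for BOLA3, whose longest coding transcripts hold 53.8%, 60.9% and 49.9% G and C. It was higher, with differences of 0.25 for NFU1, 0.13 for ISCA1 and 0.07 for ISCA2, at 42.3%, 40.8% and 43.5%. Over genes averaging 5 CPM or more, the deviation of this library from its group mean changed by -0.12 (log2) for each 10 percentage points of G and C, and that of the other 7 libraries by -0.01 to 0.06. Deviations are centred within each group, so the values of knockdown replicates 2 to 4 are not independent of that of replicate 1. What part G and C content has in the differences of the 9 genes was not tested. With offsets corrected for that content the direction and call of BOLA3 (-1.66), ISCA2 (-0.47), GLRX5 (0.12) and BOLA1 (0.18, not passed) were as before.

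**Figure D5:**
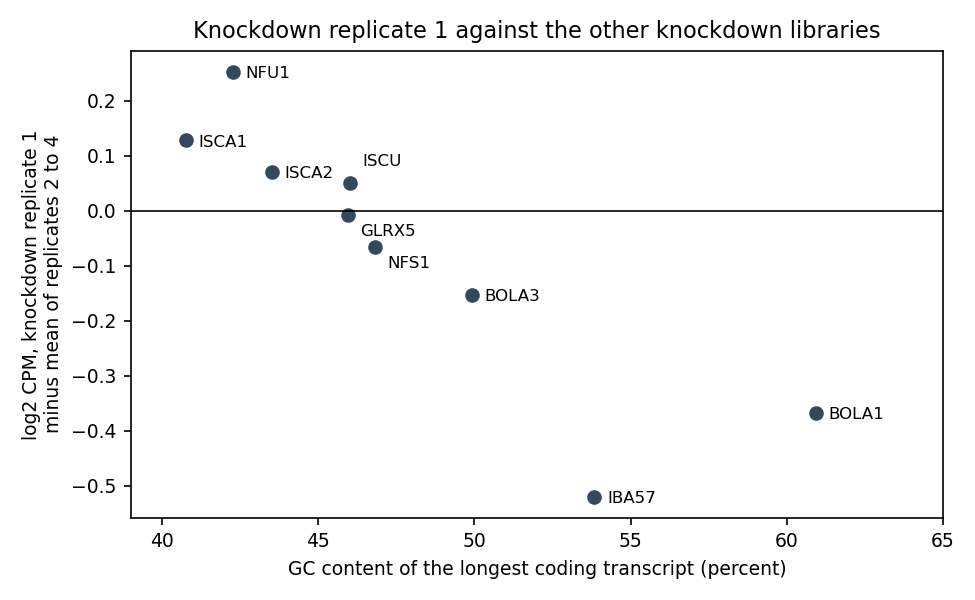
Log2 CPM of each gene in knockdown replicate 1 minus the mean of knockdown replicates 2 to 4 (vertical), against the percentage of G and C in its longest coding transcript (horizontal). NFU1, ISCA1 and ISCA2, of lowest content, lie above 0, and BOLA3, IBA57 and BOLA1, of highest content, below it, with IBA57 at -0.52.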

How the data were processed

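RNA of KYSE150 cells was sequenced in 8 libraries, 4 with BOLA3-L knockdown and 4 controls. Per the labels, polyA RNA was used and the build is hg38; per the series design text, reads were filtered with fastp. For the aligner, counting tool and strand use: not given in the sources used here. Raw counts per gene and FPKM values were deposited by the authors; all 110558 FPKM values above 0 equal the count over 1 length per gene and the library total to within 1e-06, so they are no separate evidence. Counts were normalized by TMM, filtered with filterByExpr and tested with edgeR 4.0.16 (robust quasi-likelihood F-test, no covariate, R 4.3.3), adjusted by Benjamini-Hochberg over 11841 genes. CPM use TMM library sizes (unscaled totals for marker maxima and for the summed levels of marker lists), and 3 counts over the unscaled totals are 0.0854 to 0.0962 CPM. The SE is the absolute log2 change over the square root of F. Intervals are 95%. Ratios used exact permutation (scipy 1.17.1). Alternatives used DESeq2 1.42.0 and limma 3.58.1. GC content came from GENCODE v29 for 99.6% of tested genes. Shared sequence means windows of 75 bases, every 25, found in transcripts of other genes. The fits were tested on simulated data.

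The 9 genes and all lists were chosen with earlier results of these data known. The rule for named genes takes the 9 genes, every gene of the other lists with an adjusted p under 0.05 (or the largest change where none passed), and the 5 genes closest in profile to BOLA3 and to ISCA2. The nearest gene of the count table on each side of each of the 9 genes was a planned comparison. Genes outside both were named after their values were seen: FDX1, FDXR, LIAS, DLAT, NDUFS7, NDUFS8, NDUFV1, CISD3, CISD1, GLRX3 and BOLA2. Levels scaled to the longest coding transcript were added after seeing the data. Some genes that the rule or the planned comparisons take are counted but not reported by name here.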

Additional observations from a re-analysis of the deposited data

Results flagged for a closer look

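In a check of the 4 libraries of each group for 1 value far from the rest, run on 44 groups of values (the 9 genes, their 6 ratios and further genes), 2 values stood out. Chance marks about 1 group in 20. BOLA2B was at 19.4 CPM in knockdown replicate 2, far above the other 3 knockdown libraries (2.59 to 4.72 CPM). MOB1A was at 230.3 CPM in knockdown replicate 1, while the other 3 knockdown libraries lay between 195 and 197 CPM.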

How the results depend on the processing

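BOLA3 and ISCA2 kept their direction and call in all 19 alternatives, and the number of the 9 genes that fell was 2 in each. The number that rose, 1 with all libraries, was 0 with no filter on low counts and 0 with the replicate number as a block, where GLRX5 had an adjusted p of 0.0530 and 0.0625, and 0 to 2 with 1 library left out. IBA57, not passed in any, changed sign: 0.051 with GC-corrected offsets and without knockdown replicate 1, and -0.14 to 0.080 with 1 library left out. The number of other assembly genes that rose was 4 with GC-corrected offsets, 4 with those and without knockdown replicate 1, 4 with limma and no filter, and 1 to 4 with 1 library left out. Of lipoic acid genes 1 rose with no filter on low counts, under the block, with limma and no filter, and with GC-corrected offsets without knockdown replicate 1. None fell, so the count was 0, after upper quartile normalization, under the block and in the limma fits, 2 fell with either GC correction, and 0 to 2 rose and 0 to 2 fell with 1 library left out. Of cluster-carrying proteins 2 to 6 rose and 0 to 1 fell with 1 library left out. BOLA2B rose in DESeq2 (1 gene of its list; 0 to 1 with 1 library left out).

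With 1 library left out the log2 differences ranged from -1.82 to -1.73 for BOLA3/GLRX5, -1.90 to -1.76 for BOLA3/BOLA1, 1.46 to 1.67 for NFU1/BOLA3, -0.60 to -0.52 for ISCA2/ISCA1, -0.57 to -0.33 for ISCA2/IBA57 and -0.051 to 0.021 for NFS1/ISCU. Adjusted over the 3 ratios that hold no BOLA3, chosen after seeing the data, ISCA2/ISCA1 (-0.56) had an adjusted p of 0.0857. That is the lowest value that 1 ratio alone at the limit of p could reach. CPM in place of FPKM gave the same ratios up to a constant. No pairing by replicate number showed. Deviations of same-numbered libraries correlated at -0.18 to 0.13 across genes, and 1 of 4 knockdown libraries was closest to its own number. Values this few cannot exclude a pairing. Under the block 1656 genes rose and 1736 fell, against 1777 and 1853. The cause of these differences was not tested. IBA57 has the fewest counts of the 9 genes.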
